A study of Mus musculus with 19 samples.

Results

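The libraries examined here ask how RNA contacts of FMRP in excitatory neurons of the mouse hippocampus stood 30 min after the neurons were activated with light. They are the 8 of the 19 libraries of the series whose titles give 30 min, 4 labelled Opto and 4 labelled Control, and they were chosen by title and not by any measured value. All 8 came from the CA1 region of acute hippocampal slices of mice with the genotype Camk2a-Cre x Fmr1 cTag. In this genotype FMRP carries a tag only in cells where the Camk2a promoter has driven Cre, so tags report on Camk2a-Cre cells and not on all of CA1. Per the labels' protocols the tissue was lysed with cycloheximide, a drug that holds ribosomes in place, and RNA was cloned by BrdU-CLIP. The 4 opto libraries came from tissue given AAV-ChR2, a virus carrying channelrhodopsin-2, a cation channel opened by light. The 4 control libraries came from tissue given AAV-Control and were collected at the same time. Each control therefore shares the tag, the Cre driver, a viral vector and the slice preparation with the opto libraries. The labels do not give age, strain beyond this genotype, or which libraries came from separate animals, so p-values measure only the spread between these libraries, which may in part be technical. A set of 8 libraries made at 5 min and 3 noCre background libraries, named so in their titles although their genotype label is that of the other libraries, were used only for contrast.

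FMRP, the protein lost in fragile X syndrome, binds messenger RNA, largely within coding sequence, and is known to restrain its translation by ribosomes. In neurons its best-known targets encode synaptic proteins, cytoskeletal proteins and regulators of chromatin, and neuronal activity is known to relieve part of that restraint. In CLIP, ultraviolet light links a protein to RNA it touches, and each sequenced fragment of that RNA is a tag, so the number of tags on a transcript reflects both how much of the RNA there is and how often the protein contacts it. Tags alone do not separate these. The files name transcripts by Ensembl ID and do not pair them with genes, and the gene table at hand (assembly GRCm38.p6) matched 0 of the 49932 IDs. Transcripts are therefore given by ID or by rank, with no gene name, sequence or position, and whether markers of CA1 excitatory neurons or of other cell types were among the tags was not tested.

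The 8 libraries held 804193 tags, of which 213545 were in the opto and 590648 in the control libraries. Together they listed 39116 transcripts with at least 1 tag, and 3154 of these were listed in all 8. Opto replicates 1 to 4 held 20456, 29396, 121972 and 41721 tags, and control replicates 1 to 4 held 81588, 192471, 135474 and 181115. The same-numbered control was deeper by 3.99-fold in pair 1, 6.55-fold in pair 2, 1.11-fold in pair 3 and 4.34-fold in pair 4. Pair 3 thus holds 2 libraries of nearly equal depth, and every other pair sets a shallow opto library against a deep control. The geometric mean of the opto totals was 0.299 of that of the controls (exact two-sided permutation test on log10 totals, p = 0.0571, n = 4 per group, smallest possible p 0.0286). The groups overlapped, because opto replicate 3 held more tags than control replicate 1.

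Depth bore on what could be seen of single transcripts. With 3 tags as the limit, a transcript not seen could have had as much as 0.0147% of the tags in opto replicate 1 and 0.00156% in control replicate 2, which covers counting error only. Of the 2871 transcripts that passed the filter on low counts, 435 had 0 tags in opto replicate 1, 221 in replicate 2, 3 in replicate 3 and 113 in replicate 4. In the controls 0 to 13 did.

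**Figure D1:**
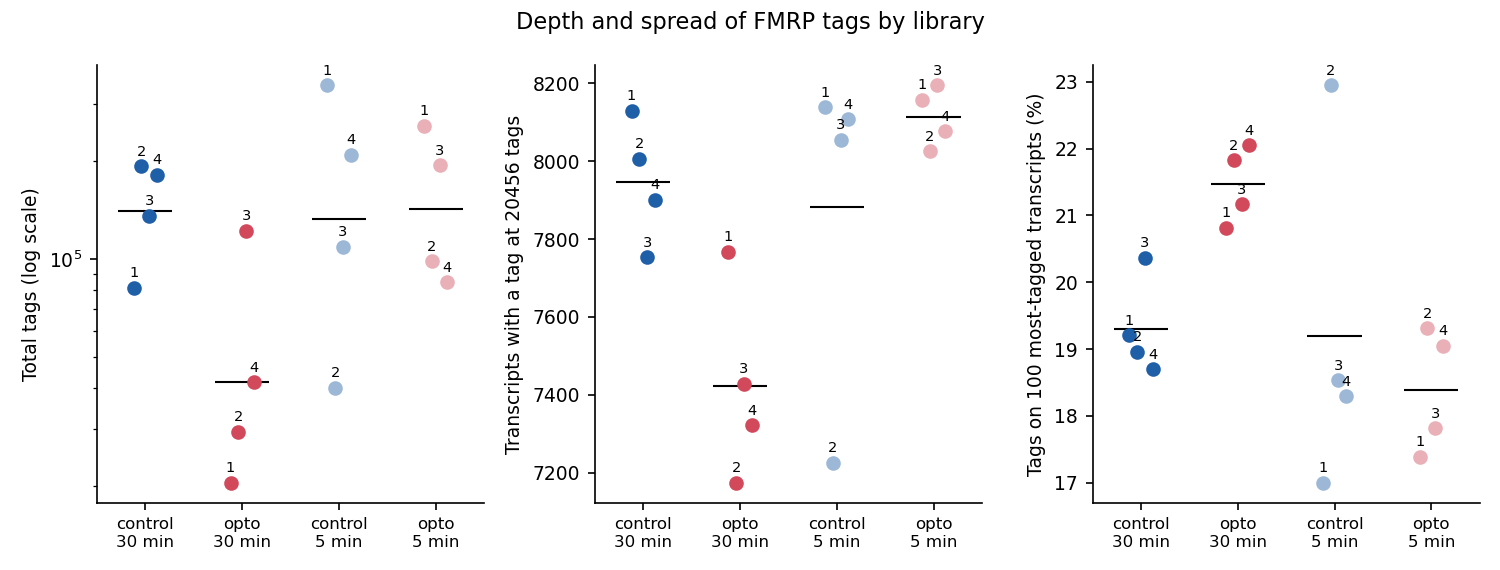
Total tags (log axis), the number of transcripts expected with a tag when each library is thinned to 20456 tags, and the percent of tags on the 100 transcripts most tagged at 5 min, for each library. Numbers are replicates and bars are group means (geometric for totals). At 30 min the opto libraries sit between 20.8% and 22.1% in the right panel, above all 4 controls, and the shallow 5 min control replicate 2 sits higher still at 22.9%.

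The number of transcripts reached by the tags was compared at the same depth in every library. Thinned to 20456 tags, opto replicates 1 to 4 were expected to list 7768, 7174, 7428 and 7321 transcripts, and control replicates 1 to 4 to list 8130, 8007, 7753 and 7901. The means were 7423 ± 253 and 7948 ± 160 (SD, n = 4), with opto lower in 4 of 4 pairs. Opto replicate 1 lay just above the lowest control, so the groups overlapped at this depth (exact two-sided permutation test, p = 0.0571, n = 4 per group). At 10000 tags they did not overlap, with 4698 ± 118 and 5009 ± 92.9 transcripts (SD, n = 4, exact permutation p = 0.0286, the smallest the design allows). That p was not adjusted.

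The most tagged transcripts took a larger share of the tags in opto. Transcripts were ranked by their mean share in the 8 libraries of 5 min, which take no part in this comparison. The first 100 of that ranking held 20.8%, 21.8%, 21.2% and 22.1% of the tags in opto replicates 1 to 4. They held 19.2%, 19.0%, 20.4% and 18.7% in control replicates 1 to 4, so every opto library exceeded every control. The means were 21.5% ± 0.574 and 19.3% ± 0.736 (SD, n = 4), a difference of 2.16 percentage points (exact two-sided permutation test, p = 0.0286, 0.0571 after adjustment over 4 measures of the libraries). Neither this share nor the one on transcripts with a noCre tag was in the plan of tests. The adjustment leaves out other library measures that were computed. In pair 3, where depth was nearly equal, the difference had the same direction, 21.2% against 20.4%, and was the smallest of the 4 pairs.

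The share of tags on transcripts that the background libraries also held moved in step. The 3612 transcripts with at least 1 noCre tag took 55.5%, 55.6%, 55.6% and 57.4% of the tags in opto replicates 1 to 4 and 52.0%, 51.6%, 54.5% and 53.5% in the controls. No opto library overlapped the controls (means 56.0% ± 0.917 and 52.9% ± 1.33, SD, n = 4; exact permutation p = 0.0286, adjusted over 4 measures 0.0571). In pair 3 the values were 55.6% and 54.5%.

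The same measures varied with depth at 5 min, where opto and control totals were alike (158445 ± 81670 and 174875 ± 130879, SD, n = 4). Among the 8 libraries of 5 min, the share on the 100 most tagged transcripts fell with the log10 total (Pearson r = -0.925, permutation p = 0.000248, adjusted over 3 relations 0.000744; Spearman rho = -0.952, permutation p = 0.00114, n = 8). Without the 2 libraries of most extreme depth r was -0.909 (exact permutation p = 0.0139, n = 6). For the share on transcripts with a noCre tag, r was -0.930 (permutation p = 0.000744, n = 8, adjusted 0.00112), rho was -0.952 (permutation p = 0.00114) and r without those 2 libraries was -0.871 (exact permutation p = 0.0306). The number of transcripts at equal depth rose with the total, with r = 0.793 (exact permutation p = 0.00729, n = 8, adjusted 0.00729) and rho = 0.762 (exact permutation p = 0.0368). Without the 2 libraries r was 0.798 and no longer passed (exact permutation p = 0.0778). Within the opto libraries of 30 min, replicate 1, the shallowest at 20456 tags, had the lowest shares, 20.8% and 55.5%. It also listed the most transcripts at equal depth, 7768. Among the 30 min controls the shallowest, replicate 1 at 81588 tags, also listed the most, 8130. The deepest control, replicate 2 at 192471 tags, had the lowest share on transcripts with a noCre tag, 51.6%. The relation with depth within the 30 min groups was not tested. At 30 min depth and activation differ together in 3 of the 4 pairs, and in those pairs they cannot be told apart.

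**Figure D2:**
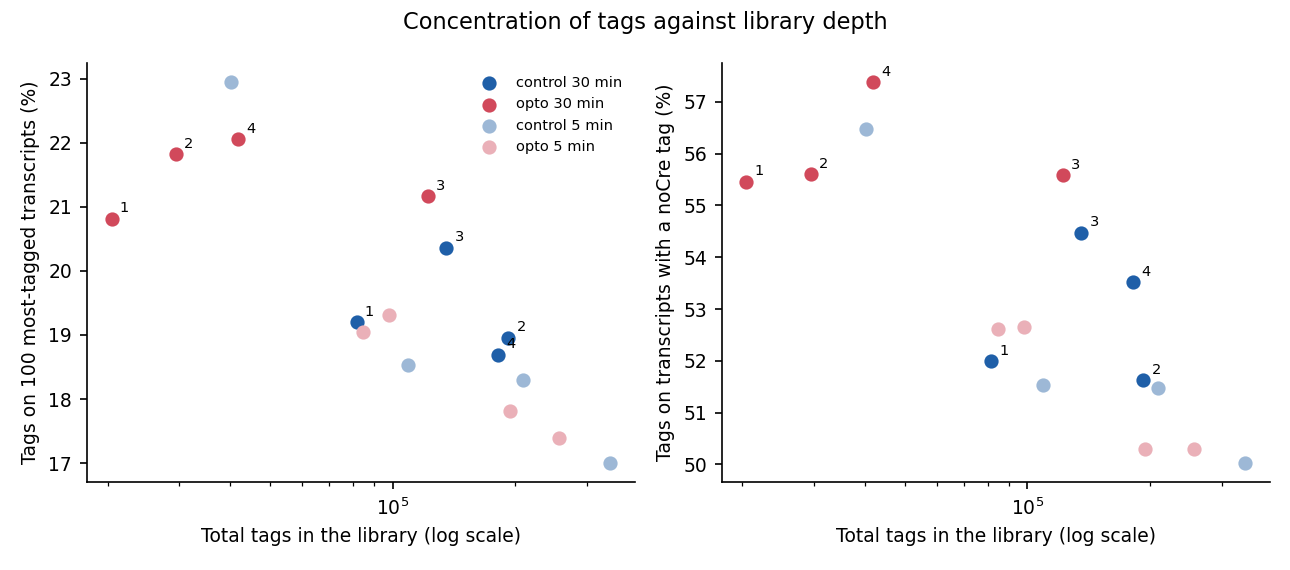
Percent of tags on the 100 most tagged transcripts (left) and on transcripts with a noCre tag (right) against the total tags of the library (log axis), for all 16 Cre-positive libraries; numbers mark the 30 min replicates. Both shares are lower in deeper libraries at 5 min, and at 30 min opto replicate 3, at 121972 tags, lies at 21.2% and 55.6% against 20.4% and 54.5% in control replicate 3, at 135474 tags.

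At the level of transcripts few differences passed. edgeR's quasi-likelihood test was fitted on the 16 Cre-positive libraries. The total of each library was its tags on the tested transcripts, scaled by TMM. The test called 1 of 2871 transcripts between opto and control at 30 min (0.0348%) at a Benjamini-Hochberg adjusted p under 0.05. With the replicate number as a block, which compares each opto library with its same-numbered control, 9 passed (0.313%), 6 higher and 3 lower in opto. At an unadjusted p under 0.05 there were 84 higher (2.93%) and 157 lower (5.47%) in opto. Values of all 4 opto libraries lay below all 4 controls for 98 transcripts (3.41%) and above them for 38 (1.32%). Opto was lower in 4 of 4 pairs for 309 transcripts (10.8%) and higher in 4 of 4 for 213 (7.42%). Non-overlapping groups at 5 min numbered 36 with opto below (1.25%) and 28 with opto above (0.975%). The lower transcripts were 65.1% of those at an unadjusted p under 0.05. The split became 76.9% with totals over the tested transcripts alone as scaling. It was 53.7% in limma's voom fit and 52.4% when the filter was a mean of 20 tags or more. With counts thinned to equal depth it was 19 higher and 18 lower (48.6% lower) among 364 tested.

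The split differed between classes of tag strength, without a steady trend. Among the 1338 transcripts with a mean of 10 to 20 tags over the 16 libraries, 22 were higher and 80 lower at an unadjusted p under 0.05. Among the 363 with under 10, 12 were higher and 18 lower, and among the 836 with 20 to 50, 31 and 34. Among the 221 with 50 to 100, 10 were higher and 18 lower, and among the 113 with 100 or more, 9 and 7. At least 1 opto library held 0 tags for 70 of the 157 lower transcripts (44.6%). That held for 7 of the 84 higher (8.33%) and 664 of all tested (23.1%). A 0 in an opto library itself lowers the opto side, and the filter could be met through the controls alone. The contrast between lower and higher transcripts therefore partly follows from the selection. The median log2 fold change of all tested transcripts was -0.02 with TMM and -0.07 with totals over the tested transcripts alone.

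For the strongly tagged transcripts the data also bound, approximately, how far the shares moved. The 95% interval of the log2 fold change lay between -1 and 1, that is within 2-fold either way, for 97 of the 113 transcripts with 100 or more tags (85.8%). It did so for 186 of the 221 with 50 to 100 tags (84.2%) and for 544 of 836 with 20 to 50 (65.1%). In the weaker classes it did so for 313 of 1338 with 10 to 20 (23.4%) and for 11 of the 363 with under 10 (3.03%). For some transcripts the interval is narrower than the edgeR p allows, so these counts may be too high. For example, 1 had a log2 fold change of -0.07 with SE 0.20 but an unadjusted edgeR p of 0.893. Over all tested transcripts the number was 1151 (40.1%), and for the others a change of 2-fold was not excluded at this depth. The median standard error was 0.21 in the strongest class and 0.54 in the weakest.

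**Figure D3:**
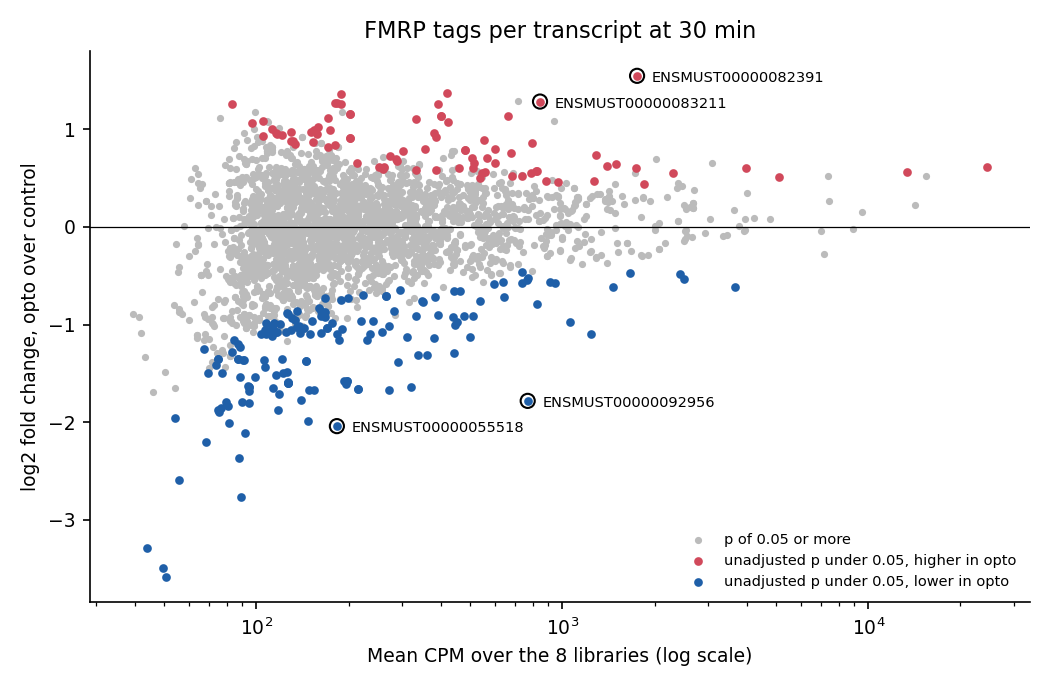
The log2 fold change of opto over control against the mean CPM of the 8 libraries (log axis) for the 2871 tested transcripts. Colours mark an unadjusted p under 0.05, 84 higher and 157 lower in opto, and circles mark the 4 transcripts described by ID.

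ENSMUST00000092956 was the 1 transcript called without the block, and it was lower in opto than in control. It had 9, 3, 27 and 9 tags in opto replicates 1 to 4 and 66, 145, 80 and 172 in the controls. CPM here means tags per 1000000 on the TMM-scaled totals of tags on the tested transcripts. In CPM these were 684, 148, 329 and 321 in opto and 1253, 1126, 881 and 1419 in control. The highest opto library lay below the lowest control. The means were 371 ± 225 and 1170 ± 227 CPM (SD, n = 4). The fitted log2 fold change was -1.78 with a standard error of 0.32 (adjusted p = 0.0172 in edgeR), which is 3.44-fold lower in opto. The share was lower by 1.83-fold in pair 1, 7.62-fold in pair 2, 2.68-fold in pair 3 and 4.42-fold in pair 4. In pair 3 the counting interval of that ratio, exact binomial at 95%, ran from 1.71-fold to 4.31-fold. This interval and those given for pair 3 of other transcripts compare 1 library with 1 library and leave out the spread between libraries, for which edgeR's biological coefficient of variation was 0.259 in the opto and 0.222 in the control group. It had 1 tag in the 3 noCre libraries together. The call rested on the opto libraries, since without opto replicate 2, 3 or 4 its edgeR adjusted p was 0.140, 0.143 or 0.147, and with log2 library depth as a covariate it was 0.0841. The log2 fold change stayed between -2.06 and -1.59 over 22 alternatives.

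ENSMUST00000055518 had the next smallest p among lower transcripts. It had 1, 1, 7 and 1 tags in opto replicates 1 to 4 and 27, 40, 18 and 24 in the controls. These were 76.0, 49.3, 85.4 and 35.7 CPM in opto and 512, 311, 198 and 198 CPM in control, again without overlap. The log2 fold change was -2.04 (SE 0.46) with an edgeR adjusted p of 0.169, which did not pass, and -1.85 (SE 0.42, edgeR adjusted p = 0.0332) with the replicate block. It was lower in 4 of 4 pairs, by 6.74-fold, 6.31-fold, 2.32-fold and 5.55-fold in pairs 1 to 4. In pair 3, on 7 and 18 tags, the exact 95% counting interval ran from 0.925-fold to 6.58-fold and included no difference. With block and depth together the log2 fold change was -1.45 (edgeR adjusted p = 0.994), so this call was lost too. The values rest on 10 opto tags in all.

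ENSMUST00000083211 had the smallest p among transcripts higher in opto. It had 19, 34, 43 and 37 tags in opto replicates 1 to 4 and 18, 88, 43 and 36 in the controls. In CPM these were 1445, 1675, 525 and 1320 in opto and 342, 684, 474 and 297 in control. Opto replicate 3 lay among the controls and the other 3 opto libraries lay above them. The log2 fold change was 1.28 with SE 0.31 (adjusted p = 0.244 in edgeR) and, with the replicate block, 1.30 with SE 0.24 (adjusted p = 0.00213). With log2 library depth as a covariate it was 0.63 (edgeR adjusted p = 0.943), and with block and depth together 0.49 (edgeR adjusted p = 0.994), so the call made with the block was lost. It was higher by 4.23-fold, 2.45-fold, 1.11-fold and 4.45-fold in pairs 1 to 4, and the exact 95% counting interval in pair 3 was 0.709-fold to 1.73-fold. It had 16 tags in the 3 noCre libraries together, all 16 in noCre replicate 3. That is 0.247% of all noCre tags, against 0.0313% of the pooled tags of the 30 min controls. A fit limited to transcripts whose noCre share did not exceed their control share left it out.

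ENSMUST00000082391 had the second smallest p among higher transcripts and the smallest of all under the block. Its tags hardly varied, at 67, 60, 52 and 55 in opto and 79, 97, 60 and 57 in control, a range of 1.87-fold over libraries whose totals ranged 9.41-fold. The CPM was 5094, 2956, 634 and 1963 in opto and 1499, 753, 661 and 470 in control. The log2 fold change was 1.55 with SE 0.45 (adjusted p = 0.392 in edgeR) and, with the block, 1.47 with SE 0.23 (adjusted p = 0.00022). It was higher by 3.40-fold, 3.92-fold and 4.17-fold in pairs 1, 2 and 4. Pair 3 gave an opto to control ratio of 0.960 (exact 95% counting interval 0.649 to 1.42). With log2 library depth as a covariate its log2 fold change was -0.09 (edgeR adjusted p = 0.995). It had 9 noCre tags, 8 of them in noCre replicate 3. That is 0.139% of all noCre tags, against 0.0496% of the pooled tags of the 30 min controls. The fit limited by noCre share left it out too. The part of background tags in the differences of these 2 higher transcripts was not tested.

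**Figure D4:**
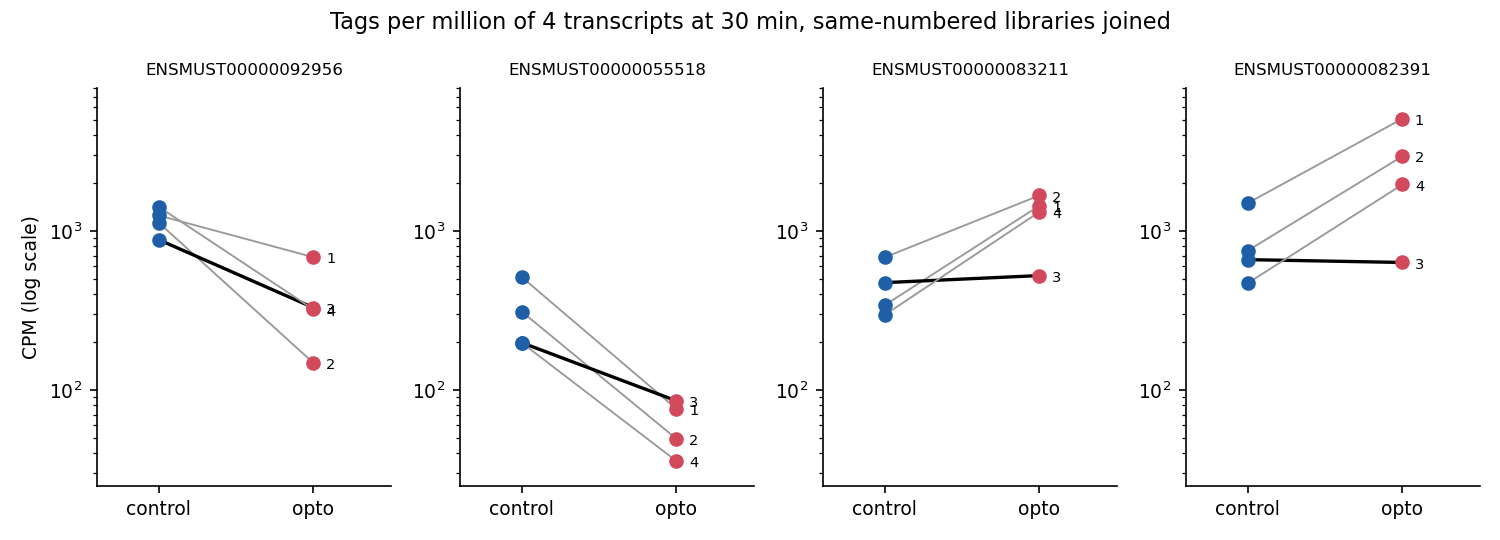
CPM (log axis) of 4 transcripts in the control and opto libraries at 30 min, with same-numbered libraries joined and the pair of like depth, pair 3, in black. The 2 transcripts on the left lie lower in opto in all 4 pairs, and the 2 on the right lie higher in pairs 1, 2 and 4 and near level in pair 3.

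The 9 transcripts called with the block divided in the same way. All 3 lower ones had non-overlapping groups, against 3.41% of all tested transcripts with opto below. They were lower in each of the 4 pairs, against 10.8% of all tested. The calls were made on these same libraries and pairs, so such agreement partly follows from the selection. In pair 3 the ratio of opto to control of these 3 ran from 0.374 to 0.456. Each had 10 to 48 tags over the 4 opto libraries together. Of the 6 higher ones, all lay higher in pairs 1, 2 and 4, with ratios from 2.16 to 4.45. In pair 3 only 3 of the 6 did, with ratios from 0.677 to 1.21 and a median of 0.988. None of the 6 had non-overlapping groups. A noCre tag was found for 5 of the 6 higher transcripts, with at most 16 each, and for 3 of the 3 lower ones, with at most 2 each, against 1487 (51.8%) of all tested transcripts. For ENSMUST00000083211 and ENSMUST00000082391, 16 of 16 and 8 of 9 of these tags came from 1 library, noCre replicate 3. With log2 depth added to the blocked fit 1 transcript passed, and it was lower in opto.

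Pair 3 was also read for transcripts called without it. The blocked fit without pair 3 called 36 transcripts, 25 higher and 11 lower in opto. In pair 3 itself 11 of the 11 lower transcripts were lower, with a median log2 ratio of -0.62 and a range from -1.40 to -0.17. The median log2 fold change of these 11 in the fit was -1.90. Of the 25 higher ones 10 were higher in pair 3, with a median log2 ratio of -0.17 there against 1.55 in the fit. Over all tested transcripts 51.3% were higher and 48.7% lower in pair 3. The called transcripts are not independent of each other, and 1 of the 25 repeats the counts of another in every library. Several of the 25 also have IDs in 1 narrow run, and how far their counts depend on each other was not tested. Some of the 11 had nearly the same values, with log2 fold changes of -3.63, -3.56 and -3.63 in the fit. These had 7, 8 and 8 opto tags in pair 3, against 14 control tags each. Median tags in pair 3, opto and control, were 20 and 25 for the lower and 40 and 36 for the higher calls. Each ratio there compares 1 library with 1 library and carries no counting interval. Fits that left out pair 1 or pair 2 called the same 3 transcripts. They were ENSMUST00000082391 and ENSMUST00000083211, higher, and ENSMUST00000092956, lower. All kept their direction in the pair left out. Pairs 1 and 2 both set a shallow opto library against a deeper control, by 3.99-fold and 6.55-fold, as pair 4 does. Depth and activation cannot be told apart in them, so the kept direction does not separate the 2. Over all tested transcripts 50.4% were higher and 49.6% lower in pair 1, and 52.3% higher and 47.7% lower in pair 2. The fit without pair 4 called 0, with 220 at an unadjusted p under 0.05 in edgeR.

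**Figure D5:**
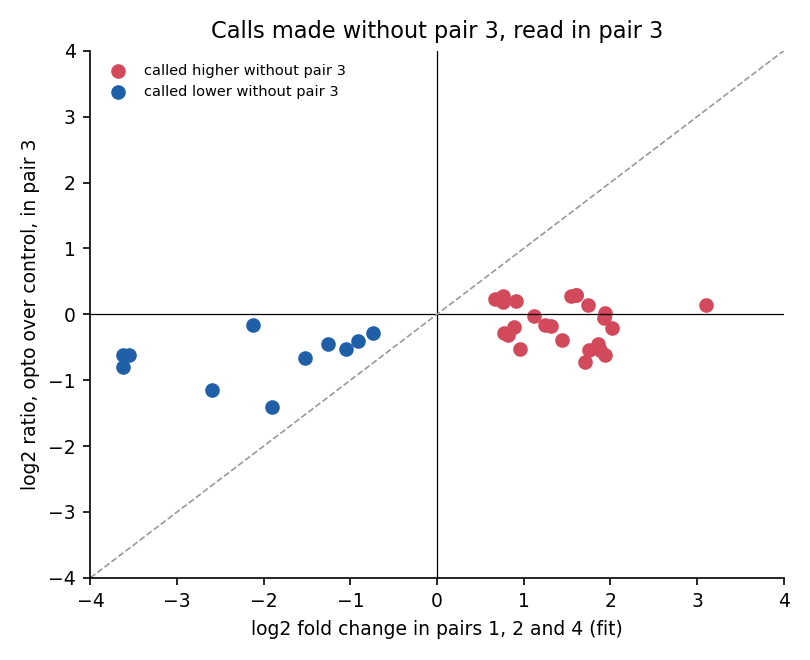
For the 36 transcripts called by the blocked fit without pair 3, the log2 fold change in that fit against the log2 ratio of opto to control in pair 3 (0.5 added to each count). All 11 lower calls lie below 0 on the vertical axis, whereas the 25 higher calls scatter around it, 10 above. The dashed line marks equal values.

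The 10 transcripts with the largest mean share of tags over the 8 libraries held 7.40% to 9.75% of the tags of each opto and 6.13% to 7.38% of each control library. Of these, 0 passed (edgeR, adjusted p from 0.590), with 2 at an unadjusted p under 0.05. Of the 10, 7 had a higher and 3 a lower mean in the fit, with log2 fold changes from -0.28 to 0.61. The most tagged one took 1.99%, 1.61%, 1.87% and 2.42% of the tags in opto replicates 1 to 4. In the controls it took 1.10%, 1.10%, 1.64% and 1.29%, so it was higher in 4 of 4 pairs and opto replicate 2 lay just under control replicate 3. Its log2 fold change was 0.61 with SE 0.26 (adjusted p = 0.590 in edgeR), and with the block 0.61 with SE 0.15 (adjusted p = 0.0580). It also had the most background of the 10, with 304 noCre tags, or 4.69% of all noCre tags. The fourth took 0.948%, 0.816%, 1.12% and 1.39% in opto and 0.542%, 0.659%, 0.943% and 0.734% in control, and its log2 fold change was 0.56 with SE 0.26 (adjusted p = 0.590 in edgeR). It had 146 noCre tags, or 2.25%. The other 8 had between 8 and 44 noCre tags. The part of background tags in these differences was not tested.

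Libraries of the 2 groups resembled each other about as closely as libraries within a group. Over 334 strongly tagged transcripts (mean of 50 tags or more), the Spearman correlation of log2 CPM between opto and control libraries had a median of 0.739 over 16 comparisons. It had a median of 0.752 among the opto and 0.786 among the control libraries, over 6 comparisons each. These are across transcripts, which are not replicates. The spread between libraries, as edgeR's biological coefficient of variation, was 0.192 without and 0.113 with the replicate block.

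The 30 min comparison was set against the one at 5 min to see where it differs. At 5 min 0 transcripts passed in edgeR, with 53 at an unadjusted p under 0.05. A test of the difference between the 2 responses called 1 transcript (0.0348%), ENSMUST00000092956, with a 30 min minus 5 min difference of -2.22 on the log2 scale and SE 0.41 (adjusted p = 0.0249 in edgeR). Its 5 min log2 fold change was 0.43 (SE 0.25). Without opto replicate 2, 3 or 4 or control replicate 4 of 30 min this difference no longer passed, with edgeR adjusted p of 0.0911, 0.124, 0.114 and 0.0694. At 5 min the CPM of ENSMUST00000092956 was 933 ± 268 in opto and 630 ± 252 in control (SD, n = 4). Every 30 min control lay above every 5 min control, at 881 to 1419 against 264 to 833 CPM. The opto libraries of 30 min, at 148 to 684 CPM, overlapped the 5 min controls. With the block 5 transcripts passed the test of the difference (0.174%), among them 2 of the 6 higher and 1 of the 3 lower transcripts above. ENSMUST00000055518 had a 5 min log2 fold change of 0.17 (SE 0.28), ENSMUST00000083211 of -0.36 (SE 0.32) and ENSMUST00000082391 of -0.07 (SE 0.44), and their differences did not pass without the block, with edgeR adjusted p of 0.331, 0.331 and 0.568.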

How the data were processed

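Each deposited file holds raw counts of tags for each transcript ID, per the file headers, without normalization. Per the submitters' processing notes, cutadapt, STAR and build mm10 were used. The annotation release, duplicate handling and assignment to isoforms are not given in the sources used here. Of the tested transcripts 138 (4.81%) had counts identical to another's in every Cre-positive library, so their values are uncertain. A transcript not listed was taken as 0.

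Groups came from titles. The test of transcripts was edgeR 4.0.16 (R 4.3.3): filterByExpr defaults (minimum count 10, minimum total 15), TMM, 1 mean per group over 16 Cre-positive libraries, Benjamini-Hochberg adjustment over all 2871. Standard errors are the log2 fold change over the root of F. Single library values were compared by exact permutation (Python 3.11.15, scipy 1.17.1). Expected transcripts at equal depth are hypergeometric. The code was tested on simulated data.

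The labels do not say that replicate numbers pair libraries. After subtracting group means, same-numbered libraries correlated at 0.460, 0.369, 0.212 and 0.201 over 334 transcripts with a mean of 50 tags or more, and at 0.148, 0.170, -0.0148 and 0.0413 over all 2871. Pairing was taken from the first set, and the block is given beside the unblocked result. Among the 334, opto replicates 3 and 4 correlated more with each other's control (0.269 and 0.259).

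Transcripts are named by smallest p, 2 each way, since no table pairs IDs with genes. For that reason the gene lists, cell type markers and tags per gene were not analysed here. The members, lists and tests were chosen with earlier results of these data known. Alternatives were DESeq2 1.42.0, limma 3.58.1 voom, other scalings and filters, thinning, a depth covariate, the block and leaving out each library.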

Additional observations from a re-analysis of the deposited data

Results flagged for a closer look

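ENSMUST00000092956 differed in its response between the times in a direct test, with a 30 min minus 5 min difference in log2 fold change of -2.22 with SE 0.41 (adjusted p = 0.0249 in edgeR). Its control mean was 630 CPM at 5 min and 1170 CPM at 30 min, and its opto mean was 933 and 371 CPM. The opto minus control difference in transcripts expected at equal depth was -525 at 30 min and 232 at 5 min, a change of -757 (exact permutation within each time, 4900 arrangements, p = 0.0127, adjusted over 4 measures 0.0506). The opto minus control difference in the share of the 100 most tagged transcripts was larger at 30 min than at 5 min by 2.96 percentage points (exact permutation p = 0.0482, adjusted 0.0642). The difference in the share on transcripts with a noCre tag was larger at 30 min by 4.01 percentage points (exact permutation p = 0.0461, adjusted 0.0642). The 5 min control replicate 2, with 40173 tags, had the highest share of the 100 most tagged transcripts, 22.9%, and enters the last 3 comparisons.

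Opto replicate 4 stood apart from the other 3 opto libraries in its share of tags on transcripts with a noCre tag, at 57.4% against 55.5% to 55.6%. Chance gives such a gap in about 1 in 20 groups, and 16 groups were examined.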

How the results depend on the processing

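The ratio of opto to control tag totals kept its direction under each of 10 alternatives, at 0.209 to 0.379 when a library was left out and 0.362 on the linear scale. The number of transcripts at equal depth differed by -312 at 10000 tags, where it passed, and by -640 to -442 when a library was left out. The 2 shares could not reach 0.05 with a library left out (3 against 4 allows 0.0571) or as pairs. Left-out values ran from 1.95 to 2.51 percentage points for the 100 most tagged transcripts and from 2.64 to 3.63 for those with a noCre tag. As a replicate block (sign-flip test over pairs, exact p = 0.125, the smallest possible) the differences stayed at 2.16 and 3.10, and with 1000 transcripts the first was 3.64 (exact permutation p = 0.0571). With the replicate block 9 transcripts passed in place of 1, and 5 in place of 1 for the difference from 5 min. The blocked count was 1 in a fit of the 8 libraries alone, 1 with depth as a covariate, and 0 to 36 without a pair (3, 3, 36 and 0 without pairs 1 to 4). Without the block 0 passed with counts thinned (37 of 364 at an unadjusted p under 0.05, edgeR) and 0 with depth as a covariate (141 of 2871, edgeR), while DESeq2 and limma each called 1. Leaving out a library gave 0 to 4: 0 without opto replicate 2 or 4 (272 and 191 at an unadjusted p under 0.05), 4 without control replicate 4, and a different transcript, higher in opto, without opto replicate 3. The difference from 5 min gave 2 with depth as a covariate and 0 to 1 with a library left out. With depth as a covariate the log2 fold change of ENSMUST00000082391 turned from 1.55 to -0.0935. The fits without a pair and the alternatives for the 2 shares were chosen after seeing the data. The 2 shares themselves were not in the plan of tests either. Fits without mitochondrial transcripts and per gene were not run, since IDs are not paired with genes. Depth limits the opto side: 252 of the 2871 transcripts had 10 or more tags in opto replicate 1, and 2679 in control replicate 2.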
